A study of Mus musculus with 6 samples.

Results

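The cells described here are Foxp3 regulatory T cells from mouse skin, 358 of the 21178 cells of the series. They were chosen by the reads themselves. A member had at least 1 UMI (a unique molecular identifier, counting 1 captured RNA molecule) of Cd3e, Cd3d or Cd3g and at least 1 of Foxp3. It had none of Cd8a, Cd8b1 or Csf1r, a summed Krt5 and Krt14 level under 20 UMIs per 10000, and not both Mki67 and Top2a. Foxp3, the Cd3 genes and the other genes of that rule are therefore given as a description only.

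Regulatory T cells are CD4 T cells that restrain other immune cells, and the transcription factor Foxp3 directs their programme. They capture interleukin 2 through a high-affinity receptor whose alpha chain is Il2ra, they block costimulation with Ctla4, and they carry several receptors of the tumour necrosis factor receptor family. In skin they live mainly around hair follicles, where they are known for restraining inflammation and for supporting repair.

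All 6 mice were of the NINJA strain and 6-12 weeks old, and the skin area treated with 4-OH-Tam (4-hydroxytamoxifen) was dissociated for 10x Genomics 5' single-cell RNA sequencing. The groups were NO_AG, in which the antigen was off, AG, in which it was on, and AG_CPI, in which it was on and CPI was added. Each held 2 mice, numbered 1 and 2 by the labels, and CPI is not spelled out there. The labels also say that each mouse was checked for skin pathology and for P14 CD8 T cells, which bear 1 transgenic antigen receptor, so the NO_AG mice share the strain, the 4-OH-Tam and the P14 cells with the others. The series text does not say which cells carry the antigen, nor sex, sorting or batch.

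The libraries held 1736 to 4972 cells, 5903724 to 24656382 UMIs in all and a median of 2527 to 4744 UMIs per cell. Any pair of libraries shared 5 to 35 cell barcodes. AG_CPI 1 stood apart: it gave 12 members with 28892 UMIs in all, none with a UMI of Xist, the RNA of the inactive X chromosome, and 2 of its 12 members had a UMI of the Y-linked gene Ddx3y. In the other 5 mice 75.6% to 88% of members had an Xist UMI and none had one of Ddx3y. Group differences that use AG_CPI 1 are given below with and without it where a fit without it tested the gene. For members, 1 UMI was worth 0.106 and 0.159 UMIs per 10000 in the NO_AG mice, 0.0210 and 0.0458 in the AG mice, and 0.346 and 0.0568 in the AG_CPI mice.

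Members numbered 25 and 19 in NO_AG 1 and 2, 159 and 78 in AG 1 and 2, and 12 and 65 in AG_CPI 1 and 2. Of 586 cells with a Foxp3 UMI, 39 lacked a Cd3 UMI, 127 had a Cd8 UMI, 12 a Csf1r UMI, 28 too much keratin RNA and 22 both cycling genes, counted in that order. At the Foxp3 threshold, 163 members (45.5%) had 1 Foxp3 UMI, 100 had 2 and 95 had 3 or more, up to 9. At the keratin threshold, 7 cells lay between 10 and 20 UMIs per 10000 and 3 between 20 and 40, counted before cycling cells were left out. The mean Foxp3 level was 7.18 and 6.42 UMIs per 10000 in NO_AG mice, 7.2 and 7.26 in AG mice and 9.76 and 10.1 in AG_CPI mice. Members had a median of 1941.5 to 2740 UMIs, and mitochondrial RNA made up 2.75% to 4.22% of their UMIs.

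The label was checked against markers that the rule did not use. Ctla4, an inhibitory receptor that regulatory T cells hold at high level, had a UMI in 56% and 42.1% of members in NO_AG mice, 66.7% and 65.4% in AG mice and 58.3% and 80% in AG_CPI mice. Among keratin-high cells (summed Krt5 and Krt14 of 20 or more UMIs per 10000, no Cd3 UMI), which should lack it, the share was 0% to 2.97%, at median depths of 2230.5 to 6920.5 UMIs. After thinning each cell to 1500 UMIs, which no cell fell short of, the members' Ctla4 share was 36.8% to 67.7%. Ikzf2 (Helios), a transcription factor of regulatory T cells, had a UMI in 78.9% to 93.8% of members against 5.63% to 26.5% of keratin-high cells. Cd4, the coreceptor, had a UMI in only 28% to 47.4% of members, against 0% to 0.89% of keratin-high cells. The Foxp3 UMI itself was found in 0% to 1.04% of keratin-high cells and in 0.418% to 3.24% of T cells with a Cd8 UMI.

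RNA of other cell types in the members was low for most marker lists. In the sum over each list, B cell markers reached at most 0.329 UMIs per 10000, fibroblast markers 0.647, innate lymphoid markers 0.0594, endothelial markers 0.0878 and mast cell markers 0. The myeloid list summed to 8.24 to 30.4 and was highest in NO_AG 1. Of its 11 genes Csf1r, Cd14 and Fcgr1 were at 0 in the members of every mouse, Csf1r by the rule. C1qa was above 0 in both AG mice, C1qb in AG 1, C1qc in AG 2, and Lyz2 in NO_AG 1, AG 2 and AG_CPI 2. Keratinocyte markers summed to 16.2 in NO_AG 1 and to 1.16 to 5.21 in the other mice. The CD8 list summed to 1.61 and 1.34 in NO_AG mice, 4.02 and 6.71 in AG mice and 9.88 and 3.32 in AG_CPI mice, most of it Nkg7, a granule protein that conventional CD4 T cells also expressed. Scrublet, a doublet caller, scored all cells. In each library the top-scoring cells were marked, their number set beforehand by the size of the library. Marked cells included 5 members of AG 1 and none elsewhere. The part of these RNAs in the results below was not tested, apart from the fits without the marked cells.

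Foxp3 cells were compared with the conventional CD4 T cells of the same mice, and both were set among all T cells. Conventional CD4 T cells had a Cd3 and a Cd4 UMI, no Foxp3, Cd8 or Trdc UMI, and otherwise the same limits. They numbered 288. Since 45.5% of members had only 1 Foxp3 UMI, this class can hold regulatory T cells whose Foxp3 RNA was not captured. Their number, and their part in the shares and class differences below, was not tested. CD8 T cells had a Cd3 and a Cd8 UMI, no Foxp3 or Cd4 UMI and otherwise the same limits, and numbered 4126. Of the CD4-lineage cells (both classes together), Foxp3 cells made up 46.3% in NO_AG 1 (Wilson 95% interval 33.7% to 59.4%) and 35.2% in NO_AG 2. The share was 60.9% and 49.1% in AG 1 and 2, and 41.4% and 73.0% in AG_CPI 1 and 2. Both AG mice lay above both NO_AG mice. AG_CPI 2 was the highest of the 6 mice, and AG_CPI 1 lay between the NO_AG mice. These shares are raised because the conventional gate needs a Cd4 UMI and the Foxp3 gate does not. With a Cd4 UMI needed in both, they were 19.4% and 20.5% in NO_AG 1 and 2. They were then 39.6% and 27.0% in AG 1 and 2, and 22.7% and 52.9% in AG_CPI 1 and 2.

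The mean share was 55.0% ± 8.39 (SD, n = 2) in AG against 40.7% ± 7.86 (SD, n = 2) in NO_AG, a difference of 14.2 percentage points. The exact two-sided permutation test gave p = 0.333, the smallest p that 2 against 2 mice allow. After thinning all cells to 1500 UMIs the difference was 10.1 points and the groups overlapped. AG_CPI differed from AG by 2.22 points (exact permutation p = 1) and from NO_AG by 16.5 points (exact permutation p = 0.667). After thinning they were 9.51 points (exact permutation p = 0.667) and 19.7 points (exact permutation p = 0.333), the second without overlap. Thinning applied the gates anew, and Foxp3 cells of AG_CPI 1 went from 12 of 29 to 15 of 29 (51.7%). Without AG_CPI 1 the unthinned differences were 18.0 and 32.3 points, with 1 mouse and no test.

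Against all cells of the library, Foxp3 cells were 0.503% and 0.464% in NO_AG mice, 4.54% and 1.67% in AG mice and 0.691% and 2.94% in AG_CPI mice. Both AG and both AG_CPI mice were above both NO_AG mice on this measure. Its denominator also holds skin cells of other kinds. Keratin-high cells numbered 2394 and 1719 in NO_AG mice, 942 and 1348 in AG mice and 142 and 254 in AG_CPI mice. Their part in this share was not tested. Among Foxp3 and CD8 T cells together, Foxp3 cells were 17.9% and 5.18% in NO_AG mice, 14.7% and 10.9% in AG mice and 1.19% and 5.53% in AG_CPI mice. On that denominator both AG_CPI mice lay below both AG mice, a difference of -9.46 points (exact permutation p = 0.333), or -7.29 points without AG_CPI 1. Shares of cells do not tell more Foxp3 cells apart from fewer of the others.

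**Figure D1:**
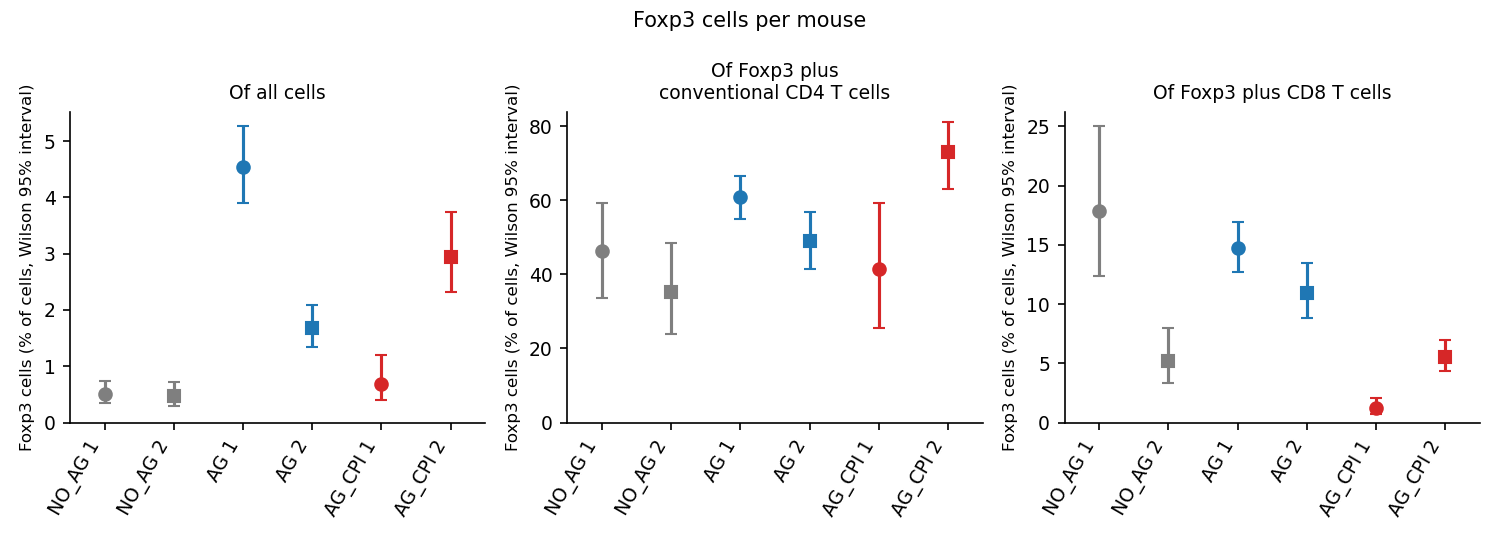
Foxp3 cells as a percent of CD4-lineage T cells, of all cells, and of Foxp3 and CD8 T cells (vertical axes, percent of cells) in each of the 6 mice, with Wilson 95% intervals that cover counting error only. Among CD4-lineage cells the AG mice (60.9% and 49.1%) sit above the NO_AG mice (46.3% and 35.2%), AG_CPI 1 (41.4%) sits between the NO_AG mice, and AG_CPI 2 (73.0%) sits highest. In that share only the conventional cells needed a Cd4 UMI.

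Cells that met every other step but carried both Mki67 and Top2a were left out as cycling. They were 2 of 27 and 2 of 21 in NO_AG mice, 5 of 164 and 10 of 88 in AG mice and 3 of 15 and 0 of 65 in AG_CPI mice. The groups overlapped.

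Between Foxp3 cells and conventional CD4 T cells, 4 receptors of the tumour necrosis factor family, the interleukin 2 receptor alpha chain and Helios were higher in Foxp3 cells. The chemokine receptor Cxcr6, the integrin chain Itgb1 and effector molecules such as Ifng and Cd40lg were lower. limma was fitted to log2(mean UMIs per 10000 + 0.5), with 1 value per mouse and class and the mouse as a block. It called 105 of 4417 genes at an adjusted p (Benjamini-Hochberg) under 0.05, which is 2.38%, 35 higher and 70 lower in Foxp3 cells. With the deposited scaling alone 45 were higher and 42 lower, so the balance of directions moved with the scaling. Fold changes below are on the log2(value + 0.5) scale, which understates changes of low genes.

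The 4 called receptors of the tumour necrosis factor family come first. Tnfrsf18 (GITR), Tnfrsf4 (OX40) and Tnfrsf9 (4-1BB) are costimulatory receptors, and Tnfrsf1b (TNFR2) binds tumour necrosis factor. Tnfrsf8, Tnfrsf25 and Tnfrsf13b, the other tested genes of that name, had log2 differences of 0.61, 0.22 and 0.18 and were not called. The 4 called genes lie on mouse chromosome 4 (GRCm38, GENCODE M21), as do Tnfrsf8 and Tnfrsf25. Tnfrsf18 is at chr4:156026164-156028895 and Tnfrsf4 at chr4:156013843-156016612, both on the plus strand with starts 12.3 kb apart. Tnfrsf9 is at chr4:150914562-150946102 on the plus strand and Tnfrsf1b at chr4:145213463-145246870 on the minus strand.

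Their promoters are shown because these genes were higher together. Each line holds the 250 bases before an annotated start (RefSeq, GRCm38.p6), 5′ to 3′ along the gene's strand. Capitals mark a match to TTCNNNGAA, the palindromic core bound by STAT proteins, which act downstream of the interleukin 2 receptor.
Tnfrsf18 (chr4:156026072-156026321, plus strand): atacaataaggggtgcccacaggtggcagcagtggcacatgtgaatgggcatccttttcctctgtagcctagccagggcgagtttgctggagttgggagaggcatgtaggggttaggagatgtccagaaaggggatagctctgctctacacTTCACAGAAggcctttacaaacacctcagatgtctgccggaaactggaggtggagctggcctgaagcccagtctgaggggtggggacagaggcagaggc
Tnfrsf4 (chr4:156013445-156013694, plus strand): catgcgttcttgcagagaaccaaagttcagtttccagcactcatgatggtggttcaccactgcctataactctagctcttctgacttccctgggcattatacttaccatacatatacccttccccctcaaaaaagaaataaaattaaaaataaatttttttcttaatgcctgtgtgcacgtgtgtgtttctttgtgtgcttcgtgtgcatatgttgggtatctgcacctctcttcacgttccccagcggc
Tnfrsf9, a downstream annotated start (chr4:150927749-150927998, plus strand): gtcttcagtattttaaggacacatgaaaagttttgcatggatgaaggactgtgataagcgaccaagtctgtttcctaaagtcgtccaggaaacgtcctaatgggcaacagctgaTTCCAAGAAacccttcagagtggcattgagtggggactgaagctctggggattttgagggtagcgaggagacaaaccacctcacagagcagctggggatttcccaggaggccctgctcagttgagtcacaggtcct
Tnfrsf1b (chr4:145246871-145247120, minus strand): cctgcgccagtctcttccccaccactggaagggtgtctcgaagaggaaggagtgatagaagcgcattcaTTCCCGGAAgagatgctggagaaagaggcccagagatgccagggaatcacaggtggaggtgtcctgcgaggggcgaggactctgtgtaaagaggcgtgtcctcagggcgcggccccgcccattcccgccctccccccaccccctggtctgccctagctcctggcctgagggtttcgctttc

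The match lies 99 bases before the start of Tnfrsf18, 136 before the downstream start of Tnfrsf9 and 181 before that of Tnfrsf1b. The Tnfrsf4 window and that of the upstream start of Tnfrsf9 hold none. Of the 35 genes higher in Foxp3 cells, 27 had a window, and 5 of these (18.5%) held the core on either strand. It was in 5 of 49 lower genes with a window (10.2%), in 6.78% of the 3569 tested genes with one and in 8.13% of all 27025 genes. The search took in 7 motifs on both strands, chosen after the data were seen, and matches of different motifs may overlap. For higher against tested genes, the NF-kappaB motif was in 3.70% and 1.74%, TGTTTAC in 3.70% and 2.77%, and TGANTCA in 3.70% and 5.38%. GGAAAA was in 22.2% and 21.3%, AGGAAG in 51.9% and 34.2%, and TATAAA in 0% and 7.90%. A match describes letters in the window and says nothing of binding.

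Tnfrsf18 had a mean level of 9.14 and 6.90 UMIs per 10000 in the Foxp3 cells of NO_AG mice, 13.0 and 14.6 in those of AG mice and 13.2 and 15.2 in those of AG_CPI mice. In conventional CD4 T cells it was 3.70 and 2.76, 7.06 and 7.66, and 6.67 and 6.66. Foxp3 cells were above the conventional cells of the same mouse in 6 of 6 mice (log2 difference 0.94, SE 0.12, limma adjusted p = 9.8e-05). No alternative ended that call.

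Tnfrsf4 stood at 17.1 and 12.8 UMIs per 10000 in NO_AG mice, 22.1 and 22.5 in AG mice and 21.6 and 33.5 in AG_CPI mice. The conventional cells had 4.53 and 2.16, 7.67 and 9.64, and 17.5 and 9.94. The gap between the classes was narrowest in AG_CPI 1, and the direction was the same in 6 of 6 mice (log2 difference 1.37, SE 0.17, limma adjusted p = 9.8e-05).

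Tnfrsf9, whose RNA rises after antigen receptor signalling, stood at 4.68 and 4.03 UMIs per 10000 in NO_AG mice, 10.7 and 15.7 in AG mice and 13.8 and 16.2 in AG_CPI mice. Its levels in conventional cells were 2.39 and 0.945, 6.21 and 4.76, and 8.14 and 6.26, again lower in 6 of 6 mice (log2 difference 1.06, SE 0.15, limma adjusted p = 0.00034). Tnfrsf1b was 1.12 to 3.25 in Foxp3 cells and 0.211 to 1.90 in conventional cells, with a log2 difference of 0.92 (SE 0.20, limma adjusted p = 0.015). Its call ended without either NO_AG mouse and without either AG mouse.

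The interleukin 2 receptor alpha chain Il2ra stood at 3.97 and 7.47 UMIs per 10000 in the Foxp3 cells of NO_AG mice, 5.30 and 8.07 in those of AG mice and 5.80 and 6.59 in those of AG_CPI mice. Conventional cells had 0.395 to 3.73, so the classes did not overlap (log2 difference 1.37, SE 0.23, limma adjusted p = 0.0021). Il2rb, the beta chain shared with effector cells, was 3.49 to 5.28 against 2.02 to 5.42 and was not called (log2 difference 0.17, SE 0.17). Of 13 tested genes of the interleukin 2 and STAT5 list, Il2ra was higher and Bcl2, a survival factor, lower.

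Ikzf2 was the gene with the largest called rise: 7.19 and 7.03 UMIs per 10000 in NO_AG mice, 9.05 and 10.8 in AG mice and 15.2 and 15.3 in AG_CPI mice. In conventional cells it was 1.39 and 0.400, 3 and 3.28, and 6.63 and 9.31 (log2 difference 1.58, SE 0.21, limma adjusted p = 0.00021).

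The factors Batf and Maf missed the threshold, with log2 differences of 0.68 (SE 0.19, limma adjusted p = 0.071) and 0.60 (SE 0.17, limma adjusted p = 0.074). So did Prdm1 at 0.60, Rora at 0.41 and Gata3 at 0.31 on the log2 scale. Tbx21, the type 1 master factor, was 0 to 0.211 UMIs per 10000 in Foxp3 cells and 0.292 to 0.780 in conventional cells (log2 difference -0.72, limma adjusted p = 0.074). Tcf7, a factor of resting T cells, was called lower (log2 difference -1.09, limma adjusted p = 0.041). AG_CPI 1 had it at 0 in both classes, and leaving out any mouse but AG_CPI 1 ended its call. Irf4 was too low to test.

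Ctla4 stood at 4.51 and 4.07 UMIs per 10000 in the Foxp3 cells of NO_AG mice, 7.41 and 6.12 in those of AG mice and 3.46 and 10.5 in those of AG_CPI mice. In conventional cells it was 1.58 and 0.342, 3.31 and 3.35, and 5.04 and 4.07. The Foxp3 cells were higher in 5 of 6 mice, and AG_CPI 1 went the other way (log2 difference 0.98, SE 0.24, limma adjusted p = 0.034). Without AG_CPI 1 the limma adjusted p was 0.00061, and without any other single mouse it lay between 0.073 and 0.17, so the call ended.

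Other suppressive molecules were not called. Interleukin 10 (Il10) was 0.0563 and 0.291 UMIs per 10000 in NO_AG mice, 0.541 and 0.731 in AG mice and 0.924 and 0.620 in AG_CPI mice. It was at 0 in the conventional cells of 3 mice and at most 0.320 in the rest (log2 difference 0.76, limma adjusted p = 0.060). Gzmb, a granule protease, had a log2 difference of 0.91 (limma adjusted p = 0.064), and Tgfb1, a suppressive cytokine, one of -0.18. Of 12 tested genes of the suppressive list, Ctla4 alone was called.

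Icos, a costimulatory receptor of the Cd28 family, was 5.18 to 11.3 UMIs per 10000 against 2.84 to 8.93, higher in 6 of 6 mice (log2 difference 0.54, SE 0.14, limma adjusted p = 0.049). This call lay at the threshold and ended without any mouse but AG_CPI 1. Tigit, an inhibitory receptor, had a log2 difference of 0.71 (limma adjusted p = 0.23), and Pdcd1 (PD-1) one of -0.48 (limma adjusted p = 0.47). Lag3 and Havcr2, also inhibitory receptors, differed by -0.13 and -0.08. Cd96 and Cd226, receptors for nectin-type ligands, were both lower. The Cd96 call ended when any 1 of the 6 mice was left out. Cd226 stood at 0.0511 UMIs per 10000 in AG 1 and at 0 in the Foxp3 cells of the other 5 mice, against 0.278 to 1.36 in conventional cells.

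Other named genes that were higher included Cd81, a tetraspanin, at 4.47 to 8.68 against 0.814 to 5.57 UMIs per 10000 (log2 difference 1.31, limma adjusted p = 0.0019). Ighm, the immunoglobulin mu chain, was 4.81 to 9.67 against 0.349 to 4.61 (log2 difference 1.49, limma adjusted p = 0.0021), while the B cell markers Cd79a, Cd79b and Ms4a1 summed to 0 to 0.329 in the same cells. Pglyrp1, a peptidoglycan recognition protein, was 2.09 to 16.7 against 1.06 to 7.50 (log2 difference 0.95, limma adjusted p = 0.0041). Tspan32, Arl5a and Ly6e were higher as well, by 1.04, 0.90 and 0.46 on the log2 scale. The Arl5a call ended without AG 1 and when 2 Foxp3 UMIs were needed, that of Tspan32 when a Cd4 UMI was needed and after thinning, and that of Ly6e after thinning and when 2 Foxp3 UMIs were needed.

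Cxcr6, a chemokine receptor of tissue-resident effector cells, showed the largest fall. It stood at 0.729 and 0.405 UMIs per 10000 in the Foxp3 cells of NO_AG mice, 1.20 and 0.568 in those of AG mice and 0 and 0.810 in those of AG_CPI mice. Conventional cells had 3.14 and 6.64, 9.41 and 7.18, and 6.63 and 4.20. The highest Foxp3 value was below the lowest conventional value (log2 difference -2.65, SE 0.23, limma adjusted p = 9.1e-07).

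Interferon gamma (Ifng), the type 1 effector cytokine, was at 0 in the Foxp3 cells of NO_AG 1, NO_AG 2 and AG_CPI 2, 0.367 and 0.363 UMIs per 10000 in AG, and 1.14 in AG_CPI 1. Conventional cells had 0.666 to 2.69 (log2 difference -1.77, SE 0.24, limma adjusted p = 0.00021). Cd40lg, the ligand with which helper cells signal to antigen-presenting cells, was 0 to 0.368 against 0.572 to 2.85 (log2 difference -1.84, SE 0.21, limma adjusted p = 4.1e-05). Nkg7 was 1.24 to 8.95 against 6.38 to 18.8, lower in 6 of 6 mice (log2 difference -1.76, limma adjusted p = 1.7e-06).

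The adhesion genes Itgb1 and Jaml fell by 1.80 and 1.55 on the log2 scale, and Ifitm2, an antiviral membrane protein, fell by 2.20. Tmsb4x, an actin-binding peptide, was 63.9 to 76.9 UMIs per 10000 in Foxp3 cells and 103 to 139 in conventional cells, the same direction in 6 of 6 mice (log2 difference -0.81, limma adjusted p = 9.1e-07). Smaller falls were called for Hcst, Ccnd3, Id2 and Eef1a1, by 0.96, 0.98, 0.82 and 0.36 on the log2 scale. With a Cd4 UMI needed the calls of Hcst, Ccnd3 and Eef1a1 ended, and after thinning that of Ccnd3. Of 80 tested ribosomal protein genes, 17 were lower and none higher, with a median of -0.21. That group was added after the data were seen.

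**Figure D2:**
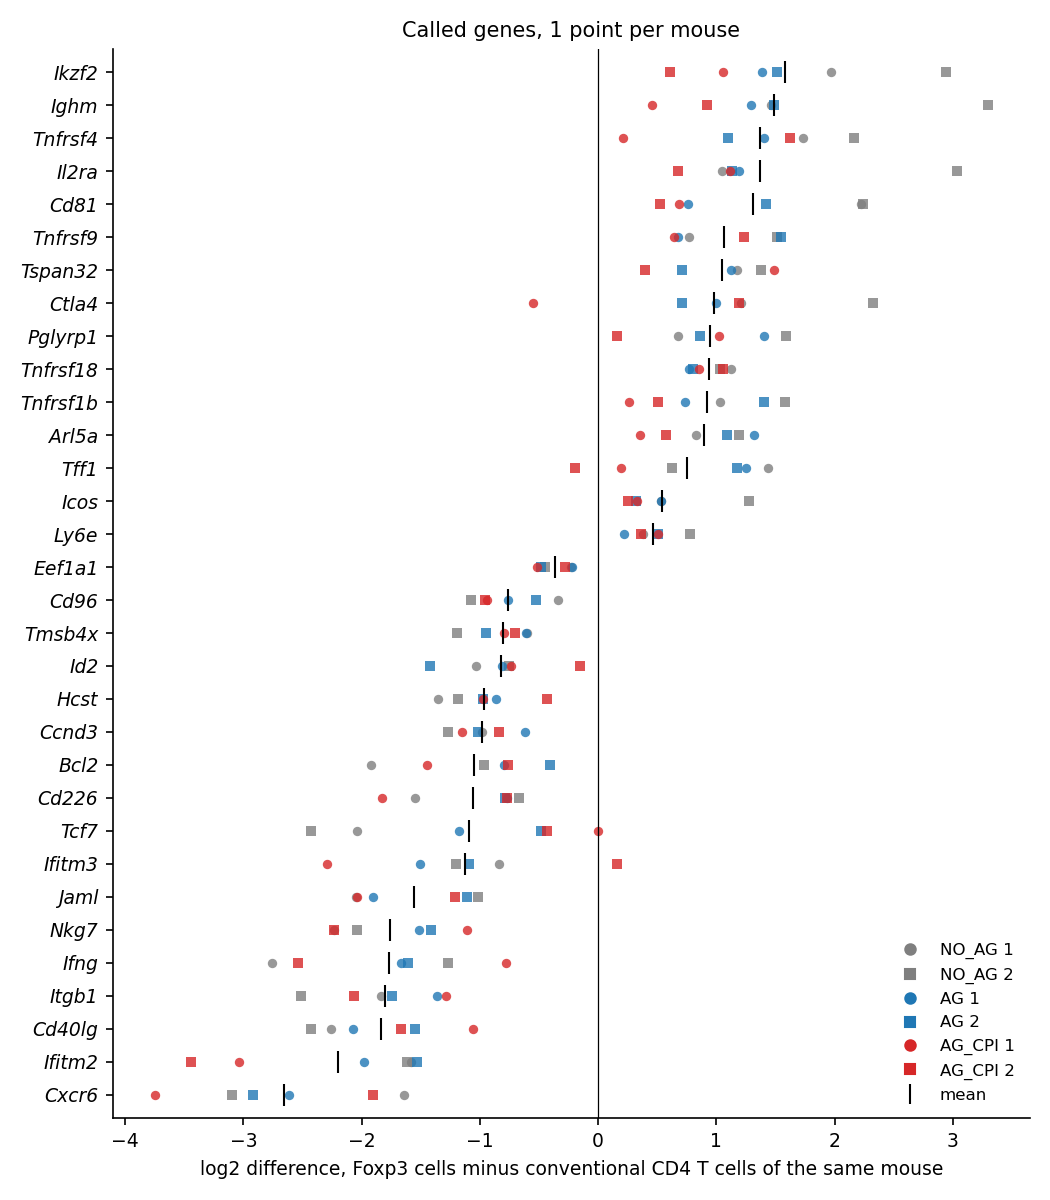
Log2 difference in mean UMIs per 10000 (+ 0.5) between Foxp3 cells and conventional CD4 T cells of the same mouse (horizontal axis) for the called genes described here, 1 point per mouse and a bar at the mean over 6 mice. Ikzf2 (1.58) and Ighm (1.49) lead the higher genes and Cxcr6 (-2.65) the lower ones, and the AG_CPI 1 point of Ctla4 lies on the other side of 0.

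By list, the counts of called genes can be read against the 2.38% called among all tested genes and their median of -0.01. Of 19 tested regulatory T cell identity genes, 8 were higher and 0 lower, with a median of 0.71. Those 8 were Il2ra, Ctla4, Ikzf2, Tnfrsf18, Tnfrsf4, Tnfrsf9, Icos and Tnfrsf1b, and such genes are held to define these cells. Of 11 costimulatory receptors, 5 were higher and 1 lower (median 0.61), 4 of them tumour necrosis factor receptors that the identity list also holds. Of 18 tissue regulatory T cell genes, Tnfrsf1b and Tff1, a trefoil peptide, were higher and Id2, an inhibitor of transcription factors, lower. The Tff1 call ended without either NO_AG mouse and without either AG mouse, and its difference in AG_CPI 2 was -0.19.

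Of 13 type 1 genes, Ifng and Cxcr6 were lower. Of 15 homing and residency genes, Cxcr6 and Itgb1 were lower and none higher. Itgae, the integrin chain that binds epithelium, had a log2 difference of 0.62 (limma adjusted p = 0.13), and the skin homing receptor Ccr8 one of 0.11. None of 4 type 17, 11 dissociation stress or 13 glycolysis genes was called. Of 16 type I interferon-stimulated genes only Ifitm3 was called, and it was lower. That call ended without either NO_AG mouse and without either AG mouse, and the difference in AG_CPI 2 was 0.16. In the resting list of 8, Tcf7 and Bcl2 were lower, the Bcl2 call ending without NO_AG 2 and without AG 1, and Il7r, the interleukin 7 receptor, had a log2 difference of 0.15. The tissue repair genes Areg and Il1rl1 differed by 0.26 and 0.45, and Klrg1, a receptor of differentiated T cells, by 0.48.

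The Foxp3 gate needs no Cd4 UMI whereas the conventional gate does, and with a Cd4 UMI needed in both, 73 genes were called, 46 of them among the 105. That fit held 3 mice only, AG 1, AG 2 and AG_CPI 2, because both NO_AG mice and AG_CPI 1 had under 10 such Foxp3 cells, so the gate and the missing mice cannot be told apart. Without the filter on low values 12 of the 32 called genes described here kept their call, and Ikzf2, Il2ra, Tnfrsf4, Cd81 and Ighm were among those that lost it. Leaving out AG 1, which held the most members, left 36 calls, NO_AG 2 left 43, NO_AG 1 left 52, AG 2 left 57, and AG_CPI 1 left 122.

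Between the groups the question was whether Foxp3 cells differed when the antigen was on, and when CPI was added. A single limma fit covered the 6 mice, and the groups' comparisons share mice. With the antigen on, the Foxp3 cells of both AG mice had higher mean levels of Tnfrsf9, Ifngr1, Gzmb and Penk than both NO_AG mice. No gene passed the test, and 39.3% of all tested genes did not overlap between AG and NO_AG, counting both directions. For AG against NO_AG, limma called 0 of 3573 genes (0%), and 149 had an unadjusted p under 0.05. For AG_CPI against AG it called 0 of 3573 (0%), with 109 at that unadjusted p. For AG_CPI against NO_AG it called 3 genes, which is 0.084%, with 372 at that unadjusted p. The called genes, Tnfrsf9, Ifngr1 and Gimap4, were all higher in AG_CPI.

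Tnfrsf9, with the levels given above, was higher in both AG mice than in both NO_AG mice (log2 difference 1.51, SE 0.26, limma adjusted p = 0.075) and in both AG_CPI mice (log2 difference 1.63, SE 0.26, limma adjusted p = 0.037). AG_CPI and AG overlapped, with a log2 difference of 0.12 (SE 0.26), or 0.28 (SE 0.31) without AG_CPI 1. Ifngr1, the ligand-binding chain of the interferon gamma receptor, was 1.27 and 0.851 UMIs per 10000 in NO_AG mice, 4.17 and 3.39 in AG mice and 5.51 and 5.28 in AG_CPI mice. The 3 groups did not overlap. Against NO_AG its log2 difference was 1.49 (SE 0.31, limma adjusted p = 0.21) in AG and 1.89 (SE 0.31, limma adjusted p = 0.037) in AG_CPI.

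Gimap4, a GTPase of lymphocytes, was 0.560 and 0.324 UMIs per 10000 in NO_AG mice, 1.1 and 1.41 in AG mice and 2.98 and 3.97 in AG_CPI mice. Its groups did not overlap either, and AG_CPI differed from NO_AG by 2.04 (SE 0.35, limma adjusted p = 0.037) on the log2 scale. The calls of Tnfrsf9, Ifngr1 and Gimap4 were fragile. All 3 ended without either NO_AG mouse and without either AG_CPI mouse: without AG_CPI 1 the log2 differences were 1.77, 1.89 and 2.24, with limma adjusted p of 0.42, 0.42 and 0.36. Other genes were called in their place, 1 higher and 5 lower without AG_CPI 2, 2 higher and 1 lower without NO_AG 1, and 1 higher without AG_CPI 1. They also ended after thinning to 1500 UMIs. When 2 Foxp3 UMIs were needed they ended as well, but AG_CPI 1 then had 9 members, under the minimum of 10, and was not in that fit. In a contrast added after the data were seen, AG and AG_CPI together against NO_AG, 2 of 3573 genes were called (0.056%, 289 at an unadjusted p under 0.05). These were Tnfrsf9 (log2 difference 1.57, SE 0.23, limma adjusted p = 0.020) and Ifngr1 (1.69, SE 0.27, limma adjusted p = 0.027). Both of these calls, too, ended without either NO_AG mouse and without either AG_CPI mouse; without AG_CPI 1 the log2 differences were 1.63 and 1.68, with a limma adjusted p of 0.22 for each.

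To ask whether a difference between AG and NO_AG belonged to Foxp3 cells, the same contrast was tested on the difference between classes within each mouse. Against conventional CD4 T cells limma called 0 of 4417 genes (0%, 143 at an unadjusted p under 0.05). Against CD8 T cells it called 0 of 3902 (0%, 207 at that p). Tnfrsf9 was also higher in the conventional cells of AG than of NO_AG, and in CD8 T cells it was 0.454 and 0.582 UMIs per 10000 in NO_AG and 3.18 and 2.39 in AG. The log2 difference of its AG effect between Foxp3 cells and conventional cells was -0.03 (SE 0.61), and against CD8 T cells -0.25 (SE 0.45). For Ifngr1 these were 0.77 (SE 0.40) and 0.69 (SE 0.35), neither called, so no change between AG and NO_AG was shown to be particular to Foxp3 cells. Differences between classes were not tested for AG_CPI.

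**Figure D3:**
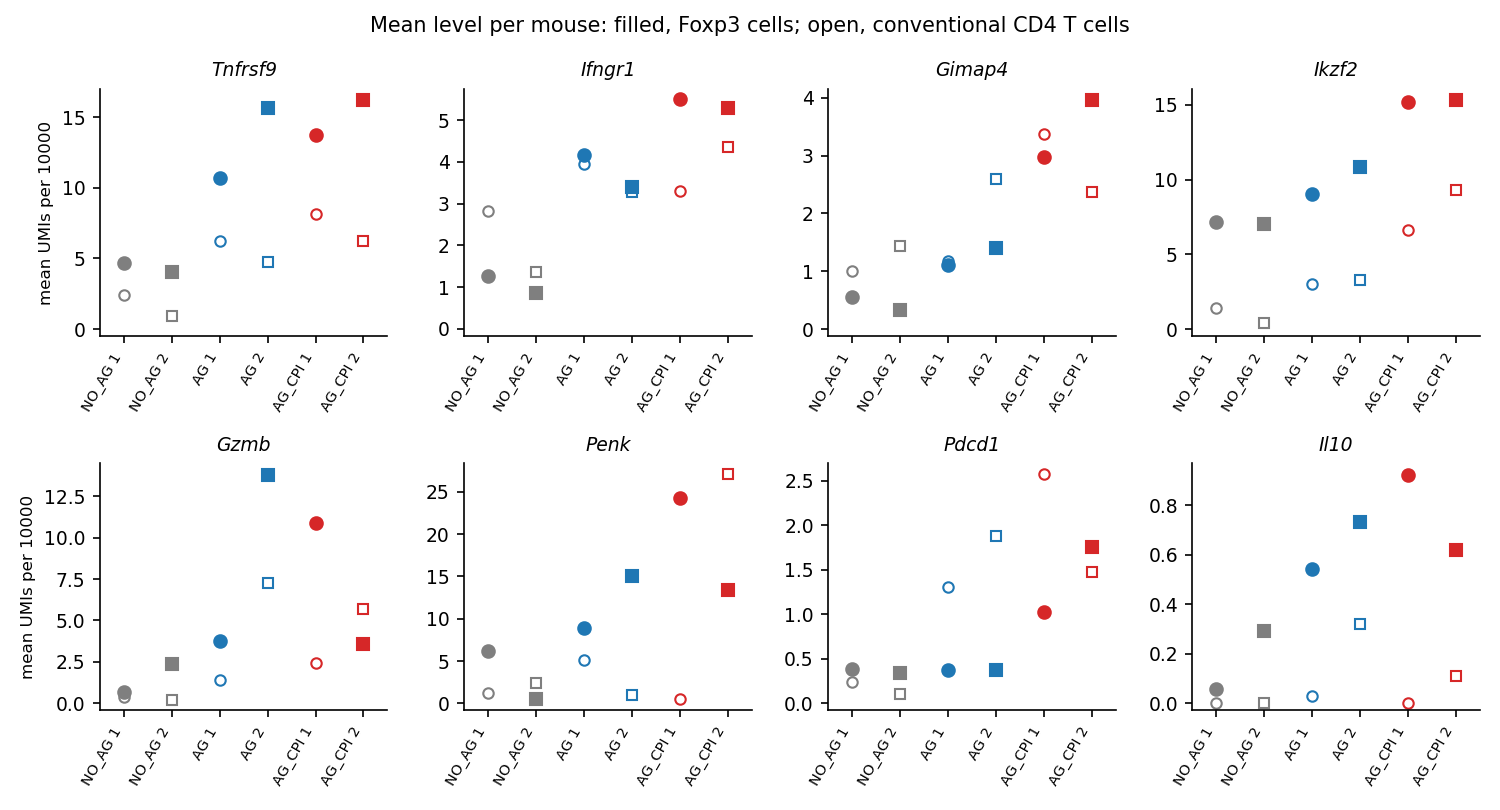
Mean level in UMIs per 10000 (vertical axes) of 8 genes in each of the 6 mice, filled for Foxp3 cells and open for conventional CD4 T cells. In Foxp3 cells Tnfrsf9, Ifngr1 and Gimap4 are lowest in both NO_AG mice, while Penk of the conventional cells of AG_CPI 2 (27.1) exceeds every Foxp3 value.

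Several other genes separated the mice without passing the test. Of all tested genes, 19.7% separated both NO_AG mice from the other 4 mice, counting both directions. Gzmb was 0.704 and 2.37 UMIs per 10000 in NO_AG mice, 3.73 and 13.8 in AG mice and 10.9 and 3.6 in AG_CPI mice, above NO_AG in 4 of 4 mice (log2 difference of AG 2.10, SE 0.54, limma adjusted p = 0.44). Penk, which encodes an enkephalin precursor made by tissue regulatory T cells, was 6.18 and 0.561 in NO_AG mice, 8.93 and 15.1 in AG mice and 24.3 and 13.4 in AG_CPI mice (log2 difference of AG_CPI against NO_AG 2.75, SE 0.58, limma adjusted p = 0.19). Without AG_CPI 1 that Penk difference was 2.36 (SE 0.91, limma adjusted p = 0.73). The NO_AG mice differed from each other more than AG 1 did from NO_AG 1.

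The chemokine gene Ccl3, chosen after its values were seen, was at 0 in the Foxp3 cells of both NO_AG mice, 1.73 and 7.85 UMIs per 10000 in AG mice and 0.429 and 1.73 in AG_CPI mice (limma adjusted p = 0.075 for AG). In the NO_AG mice, with 25 and 19 members, 1 UMI was worth 0.106 and 0.159 UMIs per 10000.

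Ikzf2 was 7.19 and 7.03 UMIs per 10000 in NO_AG mice, 9.05 and 10.8 in AG mice and 15.2 and 15.3 in AG_CPI mice, with no overlap, but passed no group test (AG_CPI against NO_AG 1.01, SE 0.24, limma adjusted p = 0.23; without AG_CPI 1 1.04, SE 0.26, limma adjusted p = 0.73). Pdcd1 was 0.388 and 0.342 in NO_AG mice, 0.376 and 0.378 in AG mice and 1.02 and 1.76 in AG_CPI mice (AG_CPI against AG 1.04, SE 0.37, limma adjusted p = 0.97), and was too low to test without AG_CPI 1. Itgae was 2.72 and 3.1 in NO_AG mice, 4.58 and 5.35 in AG mice and 2.84 and 3.26 in AG_CPI mice, highest in both AG mice (AG_CPI against AG -0.69, SE 0.29, limma adjusted p = 0.97). Without AG_CPI 1 the Itgae difference was -0.56 (SE 0.29).

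Cxcr3 and Ccr8, chemokine receptors for inflamed and barrier tissue, were lower in both NO_AG mice than in the other 4. A separation of these mice was seen in 19.7% of all tested genes, counting both directions. For AG the log2 differences of Cxcr3 and Ccr8 were 0.88 and 0.84 (limma adjusted p = 0.99 for each). Il7r was 1.63 and 3.77 in NO_AG mice, 5.51 and 5.71 in AG mice and 4.18 and 12.5 in AG_CPI mice, also without a call. Tnfrsf18, Tnfrsf4 and Icos differed between AG and NO_AG by 0.79, 0.61 and 0.67 on the log2 scale, with no overlap and no call. For Ctla4, Il10 and Tigit the same values were 0.63, 0.80 and 0.72. Havcr2 overlapped between AG and NO_AG, as did Areg, Gata3, Il1rl1, Klrg1, Maf, Rora, Prdm1, Tgfb1, Il2ra, Lag3 and Cxcr6.

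Across lists, no gene was called in AG against NO_AG. Costimulatory receptors had 9 of 10 tested genes above 0 with a median of 0.64, against a median of 0.02 over all genes, and 7 did not overlap between the groups. Among all tested genes 39.3% did not overlap in either direction. Their summed level was 45.4 and 43.4 UMIs per 10000 in NO_AG mice, 71.8 and 82.1 in AG mice and 73.6 and 95.4 in AG_CPI mice. In the conventional cells it was 23.7 and 16.1, 40.8 and 40.2, and 52.9 and 44.1, so both classes had higher sums with the antigen on.

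Type I interferon-stimulated genes were above 0 for 11 of 12 tested genes in AG against NO_AG, with a median of 0.88. In that comparison Nkg7, the only CD8 marker tested, differed by 1.56 without overlap, the 3 tested keratinocyte markers had a median of -0.78 with 2 not overlapping, and the 4 tested myeloid markers one of -0.26. In AG_CPI against AG none of 12 was above 0, with a median of -0.69 against -0.07 over all genes. Without AG_CPI 1, 1 of 12 was above 0 and the median was -0.43. Markers of other cells were below 0 in the same comparison, with none called: the 4 tested myeloid markers had a median of -0.87 and the 3 tested keratinocyte markers one of -0.49, with no overlap between the groups, and -0.76 and -0.23 without AG_CPI 1. Among all tested genes 34.3% did not overlap in that comparison. The part of these markers in either comparison was not tested. The interferon-stimulated genes' summed level was 11.3 and 24.6 UMIs per 10000 in NO_AG mice, 29.0 and 68.1 in AG mice and 23.1 and 30.0 in AG_CPI mice. AG 2 thus held a sum far above the rest, and its conventional cells (49.9) and CD8 T cells (36.0) were the highest of their class too. Ifi27l2a, an interferon-induced mitochondrial protein, gave much of it, at 5.71 and 13.4 in NO_AG mice, 17.4 and 35.8 in AG mice and 15.4 and 18.5 in AG_CPI mice (AG against NO_AG 1.49, SE 0.35, limma adjusted p = 0.40).

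Glycolysis genes ran the other way, with 1 of 13 above 0 in AG against NO_AG (median -0.20) and 2 of 13 in AG_CPI against NO_AG (median -0.38, and -0.55 without AG_CPI 1). Their sum was 118 and 115 UMIs per 10000 in NO_AG, 109 and 82.9 in AG, and 84.2 in each AG_CPI mouse. Dissociation stress genes, which rise when tissue is digested, summed to 76.5 and 69.9, 93.6 and 44.6, and 54.6 and 64.4, and none of the 11 tested was above 0 in AG_CPI against NO_AG, or 3 of 11 without AG_CPI 1. In AG_CPI against NO_AG the 4 tested myeloid markers and the 3 tested keratinocyte markers each had a median of -1.14, and Nkg7 differed by 1.27; without AG_CPI 1 these were -0.97, -0.91 and 0.20. The part of these markers and of tissue handling in these sums was not tested.

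**Figure D4:**
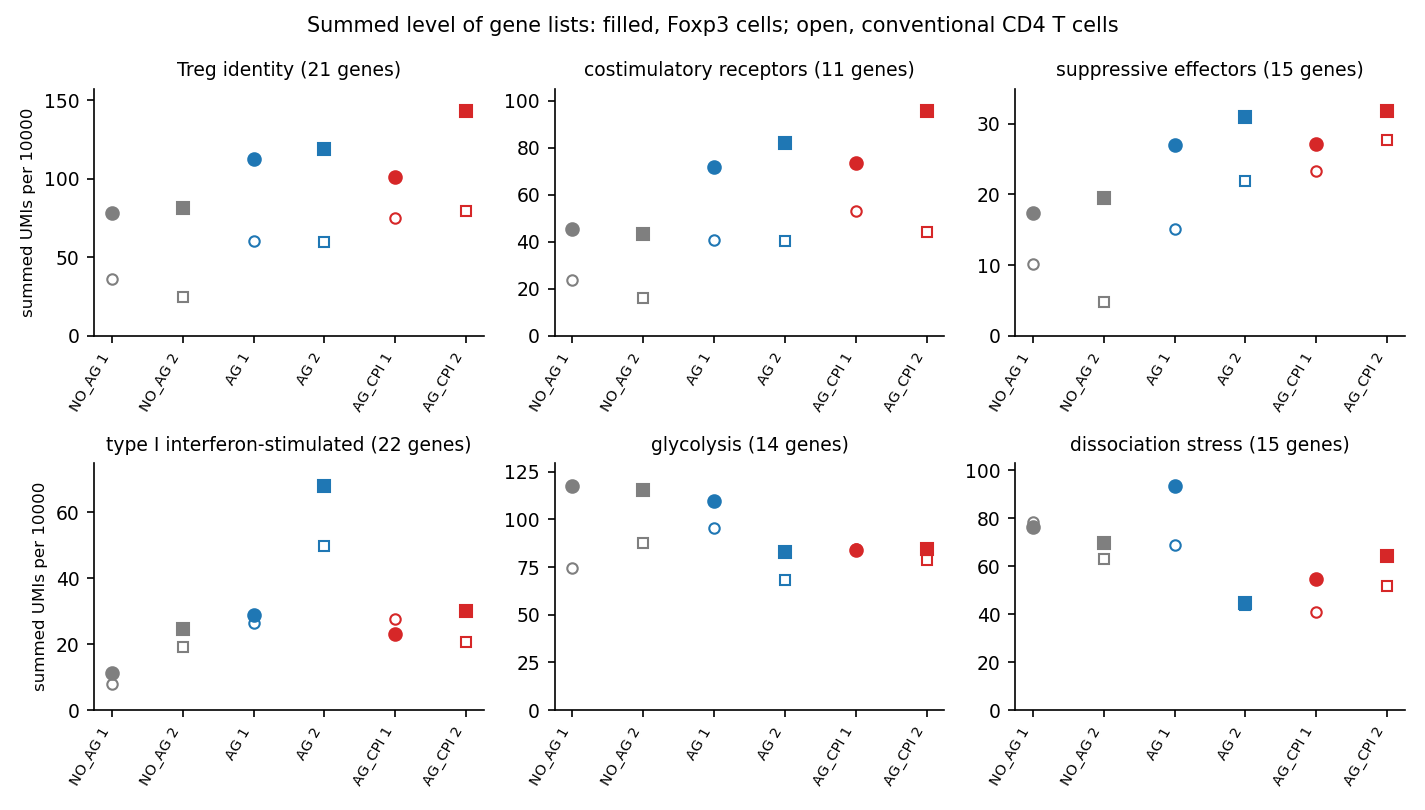
Summed level in UMIs per 10000 (vertical axes) of 6 gene lists per mouse, filled for Foxp3 cells and open for conventional CD4 T cells. The costimulatory sum is lowest in both NO_AG mice (45.4 and 43.4), and the interferon-stimulated sum is highest in AG 2 (68.1).

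The antigen receptor V segments of the members were also looked at, after the data were seen and as a description with no test. The tables held 72 Trav and 19 Trbv columns, near-identical Trav copies could split reads, and a segment is not a clonotype. At least 1 Trbv UMI was found in 52% to 100% of members per mouse. In AG 1, Trav10 was detected in 18 of 159 members and Trbv26 in 14, and 11 members held both. That pair was seen in 1 of 102 conventional CD4 T cells and 1 of 922 CD8 T cells of AG 1, and in no member of the other mice.

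A further pair in AG 1 was Trav14-3 with Trbv14. Trav14-3 was in 11 members, Trbv14 in 17 and both in 10, against 0 of 102 conventional and 2 of 922 CD8 T cells. In AG_CPI 2, Trav6-7-dv9 was detected in 17 of 65 members (26.2%, Wilson 95% interval 17.02% to 37.95%), Trbv19 in 7 and both in 5. There, Trav6-7-dv9 was also in 4 of 24 conventional cells (16.7%), and both were found in 1 of 24 conventional and 0 of 1111 CD8 T cells. Over all classes and mice, 10 cells held that pair, 5 of them these members. Trbv13-3, the beta segment of the P14 receptor, was in 4% and 5.26% of members in NO_AG mice, 9.43% and 12.8% in AG mice and 0% and 1.54% in AG_CPI mice. Without cells holding a Trbv13-3 or Trdc UMI the comparison with conventional CD4 T cells called 100 genes.

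**Figure D5:**
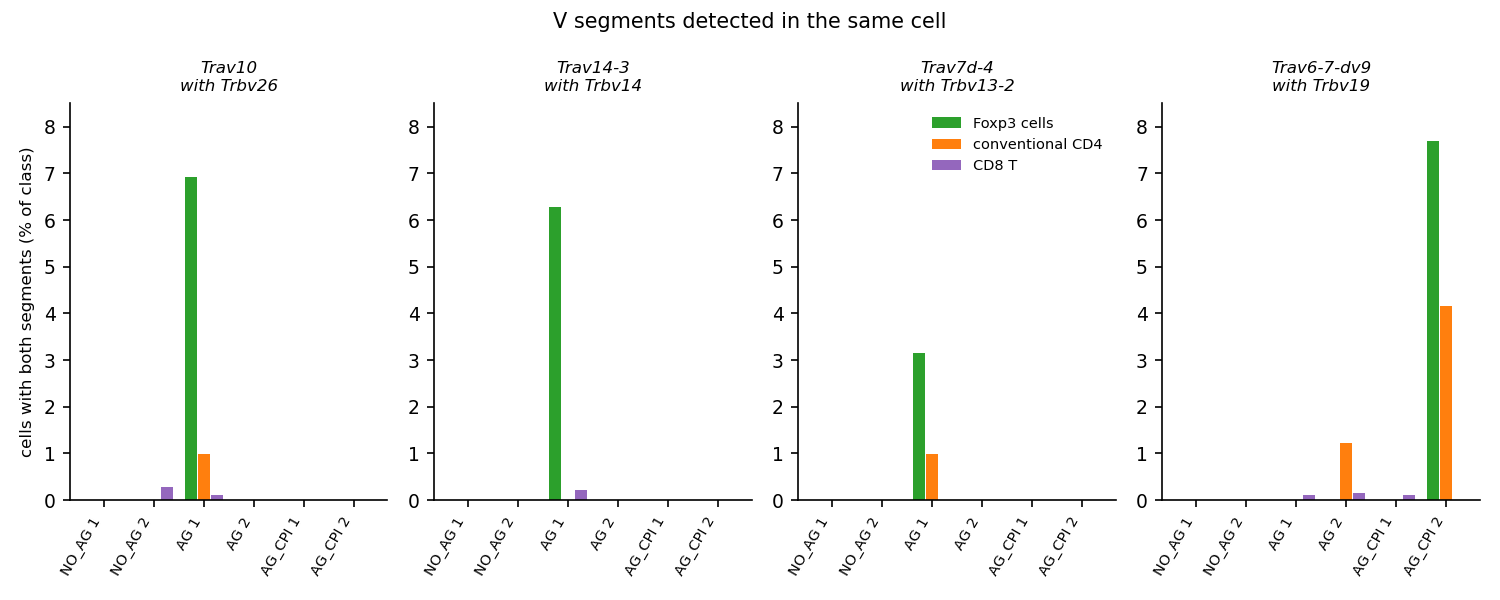
Percent of each T cell class (vertical axes) in which both named V segments had a UMI, by mouse, for the leading pairs among members. Trav10 with Trbv26 and Trav14-3 with Trbv14 are seen in 11 and 10 Foxp3 cells of AG 1, and Trav6-7-dv9 with Trbv19 in 5 of 65 Foxp3 cells and 1 of 24 conventional cells of AG_CPI 2.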

How the data were processed

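RNA was measured in single cells of skin from 6 mice, 2 in each of 3 groups. The authors deposited log10(1 + UMIs per 10000) values for 16158 genes; Cell Ranger 3.1 and mm10 are named per the submitters' processing notes. Whole UMIs were recovered from 100% of values above 0 (tolerance 0.05; with the natural log 66.9% to 69.8%), and the tables held 95.4% to 96.7% of each cell's UMIs. Cells had 1501 to 14995 UMIs.

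Members were gated with scanpy 1.11.5 and numpy 2.4.6. Cells with the top Scrublet scores, in a number set by library size, were marked as likely doublets and kept. Per mouse and class with at least 10 cells, the mean of UMIs per 10000, scaled by TMM, entered limma 3.58.1 (R 4.3.3) as log2(mean + 0.5). Genes needed 10 UMIs over the mice and a mean of 0.5 in 2 libraries; rule genes, and Cd4 and Trdc between classes, were left out. P-values measure the spread between mice; intervals and floors cover counting error only, and UMIs from 1 droplet can include free RNA.

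Members, lists and tests were chosen with earlier results of these data known. Named genes were 36 always described and, per comparison, up to 12 called genes in each direction with the smallest p and no overlap (between classes, the same direction in every mouse), antigen receptor segments, Xist and Y-linked, mitochondrial and ribosomal protein genes left out, and up to 4 examples per list; some genes that this rule or the lists hold are not reported here. The fitting steps were tested on simulated data. Alternatives were other pseudocounts, scalings, filters, gates, thinning, cell weights, a replicate block and leaving out each mouse. The gate needing 2 Foxp3 UMIs and the pooled contrast of AG and AG_CPI were chosen after seeing the data.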

Additional observations from a re-analysis of the deposited data

Results flagged for a closer look

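Foxp3 UMIs were also found in T cells that the rule left out because they had a Cd8 UMI, which no comparison above used. Their share was 2.98% on average in AG (36 of 1110 cells, 3.24%, and 32 of 1180, 2.71%), and both AG mice lay above both NO_AG mice (3 of 147, 2.04%, and 2 of 479, 0.418%). In AG_CPI the share was 0.930% (11 of 1183) and 3.22% (43 of 1337). The exact two-sided permutation test of AG against NO_AG gave p = 0.333, the smallest that 2 against 2 mice allow. Keratin-high cells without Cd3 held a Foxp3 UMI in 0.531% and 1.04% in AG and in 0.209% and 0.233% in NO_AG, and the part of free RNA in these shares was not tested.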

How the results depend on the processing

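The numbers 1 and 2 were taken not to pair the mice. Deviations of same-numbered mice from their group means correlated at 0.0085, -0.0072 and 0.031. Means over as few as 12 members carry counting error that can lower such correlations, so these values cannot exclude pairing. A replicate block on these numbers called 4 genes in place of 0 for AG against NO_AG. It called 4 in place of 3 for AG_CPI against NO_AG and 0 for AG_CPI against AG. The difference from CD8 T cells then had 1 call in place of 0, and the added contrast of AG and AG_CPI together 8 in place of 2. Weighting mice by their cells called 6 genes for AG against NO_AG, 5 for AG_CPI against NO_AG, 281 in place of 105 between the classes and 2 for the difference from CD8 T cells. For AG_CPI against NO_AG no gene was called with a pseudocount of 0.1, without the filter on low values, after thinning to 1500 UMIs or when 2 Foxp3 UMIs were needed, a gate that left AG_CPI 1 under 10 members and so out of every fit. Between the classes 14 were called without the filter, 50 after thinning and 31 without the mouse block. Without that block 19 of the 32 called genes described above kept their call, and Tnfrsf9 was among those that lost it. Requiring a Cd4 UMI called 9 genes for AG_CPI against AG, with AG_CPI 2 as the only mouse of its group and no NO_AG mouse, and could not be fitted for the other group tests, where too few cells were left. The difference from CD8 T cells had 2 calls with a pseudocount of 1 and 1 after thinning. Leaving out each mouse in turn gave 0 to 5 calls for AG against NO_AG, 0 to 1 for AG_CPI against AG, 0 to 6 for AG_CPI against NO_AG, 36 to 122 between the classes, 0 to 8 for the difference from CD8 T cells and 0 to 8 for the added contrast, which had 4 with pooled UMIs, 0 without the filter or after thinning, and 2 others when 2 Foxp3 UMIs were needed. The difference from conventional cells stayed at 0 calls in every fit that could be made.

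The AG minus NO_AG share of 14.2 points was 8.32 to 20.2 points without each mouse. Points on other denominators cannot be set against it. Of all cells the means were 3.11% in AG and 0.483% in NO_AG, 2.62 points apart. Of cells with a Cd3 UMI they were 5.45% in AG and 1.39% in NO_AG, 4.05 points apart. For single genes, 1151 of the recomputed values kept direction and side of the threshold, 142 lost it, 34 gained it and 10 changed sign. Ifi27l2a in AG_CPI against AG was 0.082 with a Cd4 UMI needed. Tnfrsf9 in AG_CPI against AG was -0.052 after thinning and -0.14 to 0.38 when each mouse was left out. Its difference from conventional cells was 0.080 with a pseudocount of 1, 0.13 with pooled UMIs and -0.45 to 0.40 without each mouse, and from CD8 T cells 0.029 with a pseudocount of 1 and -0.71 to 0.18 without each mouse. Depth limits AG_CPI 1 most, where 1 UMI over its 12 members was worth 0.346 UMIs per 10000. The cause of these shifts was not tested, and where a group was left with 1 mouse, that mouse was assumed to vary like the others.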
